A study of Sus scrofa with 10 samples.

Results

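The 97 genes described here varied most between the muscles of 10 pigs once the main axis of variation was set aside. A principal component analysis of log2(normalised count + 1), centred per gene, used the 1513 genes whose mean reached 50 normalised counts in both breeds, and its first component held 36.4% of the variance. Of the 2504 genes with a mean of at least 20 over the 10 pigs, 1249 had an absolute Pearson r under 0.5 to that component. The 100 of them with the largest SD were taken, and STMN3, WDR91 and ENSSSCG00000032599 were left out by name, which left 97 of the 25880 genes in the table. The rule names 4 further genes to leave out, and none of them was among the 100. The members were thus chosen by their SD and their correlation to the component in these same pigs, so both are given as a description. The values were normalised read counts, that is reads counted on a gene over the size factor that DESeq2 gave each library.

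The libraries came from longissimus lumborum, the loin muscle, of 5 Alentejano (AL) and 5 Bísaro (BI) purebred castrated male pigs, with 1 library per pig. These are local Portuguese pig breeds, and the labels give a carcass weight of 150 kg for every animal. The animals of both breeds were kept free range, fed commercial diets and not otherwise treated, and the labels give neither age nor sequencing batch. Between 2298045 (AL44) and 3343194 (BI25) reads were counted on genes, and 3 reads, taken as the floor, corresponded to a normalised count of 2.47 to 3.39. The summed level of the listed fast fibre genes ran from 16481 to 29196 in AL and from 24688 to 37393 in BI. These genes were thus detected in all libraries, at a small part of the reads counted on genes. Whether the muscle label was met was not tested further. The listed T and NK cell genes summed to between 3.39 and 31.2.

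Skeletal muscle is built largely of multinucleated fibres whose contractile and energy genes dominate its RNA. Stress response and early response genes are known for being raised within a short time of a stimulus, and perinatal myosins for marking developing or repairing fibres. In bulk tissue, fewer cells of a type and less RNA per cell cannot be told apart. A symbol was found for 82 of the 97 genes and none for 15. Sequences upstream of GADD45B, XIRP1 and HSPB1 are shown because these genes carried stress or repair names and belonged to correlated sets described below. Each run is the 250 bases before the RefSeq gene start on Sscrofa11.1, written 5′ to 3′ on the strand of the gene. The windows lie at chr2:76111459-76111708, minus strand, chr13:23876851-23877100, minus strand and chr3:10039442-10039691, minus strand, in that order. Capitals mark a match on either strand to 1 of 7 motifs, none of which overlapped another here. The TATA box was searched as TATAAA and the GC box as GGGCGG. The AP-1 site was searched as TGANTCA. The cyclic AMP response element was searched as TGACGTCA and the CCAAT box by the letters of its name, and neither occurred in these windows. The heat shock element was searched as GAANNTTC and, inverted, as TTCNNGAA, the latter without a match.
GADD45B: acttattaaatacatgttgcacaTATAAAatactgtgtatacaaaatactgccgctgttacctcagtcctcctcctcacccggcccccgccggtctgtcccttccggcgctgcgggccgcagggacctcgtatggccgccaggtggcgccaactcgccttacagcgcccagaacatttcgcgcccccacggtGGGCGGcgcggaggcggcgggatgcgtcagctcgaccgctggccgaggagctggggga
XIRP1: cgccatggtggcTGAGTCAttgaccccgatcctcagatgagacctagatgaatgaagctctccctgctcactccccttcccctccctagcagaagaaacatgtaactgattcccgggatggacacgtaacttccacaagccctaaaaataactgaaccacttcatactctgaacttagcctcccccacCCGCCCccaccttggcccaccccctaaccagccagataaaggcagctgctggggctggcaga
HSPB1: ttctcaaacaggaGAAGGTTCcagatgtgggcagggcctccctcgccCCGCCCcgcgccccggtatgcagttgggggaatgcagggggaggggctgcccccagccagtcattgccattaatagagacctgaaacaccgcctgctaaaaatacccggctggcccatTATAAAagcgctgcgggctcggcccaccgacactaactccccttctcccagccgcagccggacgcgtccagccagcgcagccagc

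A heat shock element began 237 bases before the start of HSPB1, and GAANNTTC was present in 4.59% of 1959 windows of the same length upstream of the 2504 genes. The AP-1 match of XIRP1 began 238 bases before its start, and TGANTCA was held by 3.47% of the windows. A TATA box letter run began 85 bases before HSPB1 and 227 bases before GADD45B, against 7.35% of all windows with such a run. A GC box occurred in all 3 sequences and in 59.6% of the windows. Of 6 windows searched in detail, which also included MARS1, GGCX and MPV17 of the same correlated set, 5 held a GC box. GGCX and MPV17 held no other motif, and MARS1 held none of the 7. Over the 78 variable genes with a window, 70.5% held a GC box, 7.69% an AP-1 match and 3.85% GAANNTTC, and their median GC content was 64.8%, against 62.4% for all windows. These matches describe letters and not bound sites.

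The SD of log2(normalised count + 1) of the 97 genes ranged from 0.707 to 2.03 (median 0.851), while the median over the 2504 genes was 0.386. Most of them were not abundant. The mean normalised count was under 50 for 52 genes, under 100 for 69 and at least 1000 for 6. At least 1 pig was at or under 3 reads in 12 genes, against 28 of the 2504. Counting error alone would give a median SD of 0.241 at these depths, and the measured SD was 2.25 to 76.7 times the counting SD (median 3.61). The median of this ratio over the 2504 genes was 2.46. The rule took genes of large SD, so nothing is read from the higher ratio of the members. The genes just inside the limit were OVOL1, TM4SF5 and TBCC (SD 0.7096, 0.7082 and 0.7068), and those just outside were ACTB, ENSSSCG00000039073 and STK11IP (SD 0.6994, 0.6984 and 0.6921). In 29 genes a single pig stood apart from all others by at least 1 log2 unit, 8 times as the highest and 21 times as the lowest. Among the 2504 genes 92 had such a pig, and the rule favours genes with a distant pig. Without their most distant pig, 36 of the 97 genes remained above the SD limit. Whichever pig was left out, 13 genes were chosen again, among them UQCRC2, MYH8, VTI1B, RAB11FIP5, RNF166, RRAD, ATCAY, PGAP3, VCL, ENSSSCG00000033597, ENSSSCG00000038831 and ENSSSCG00000036020.

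**Figure D1:**
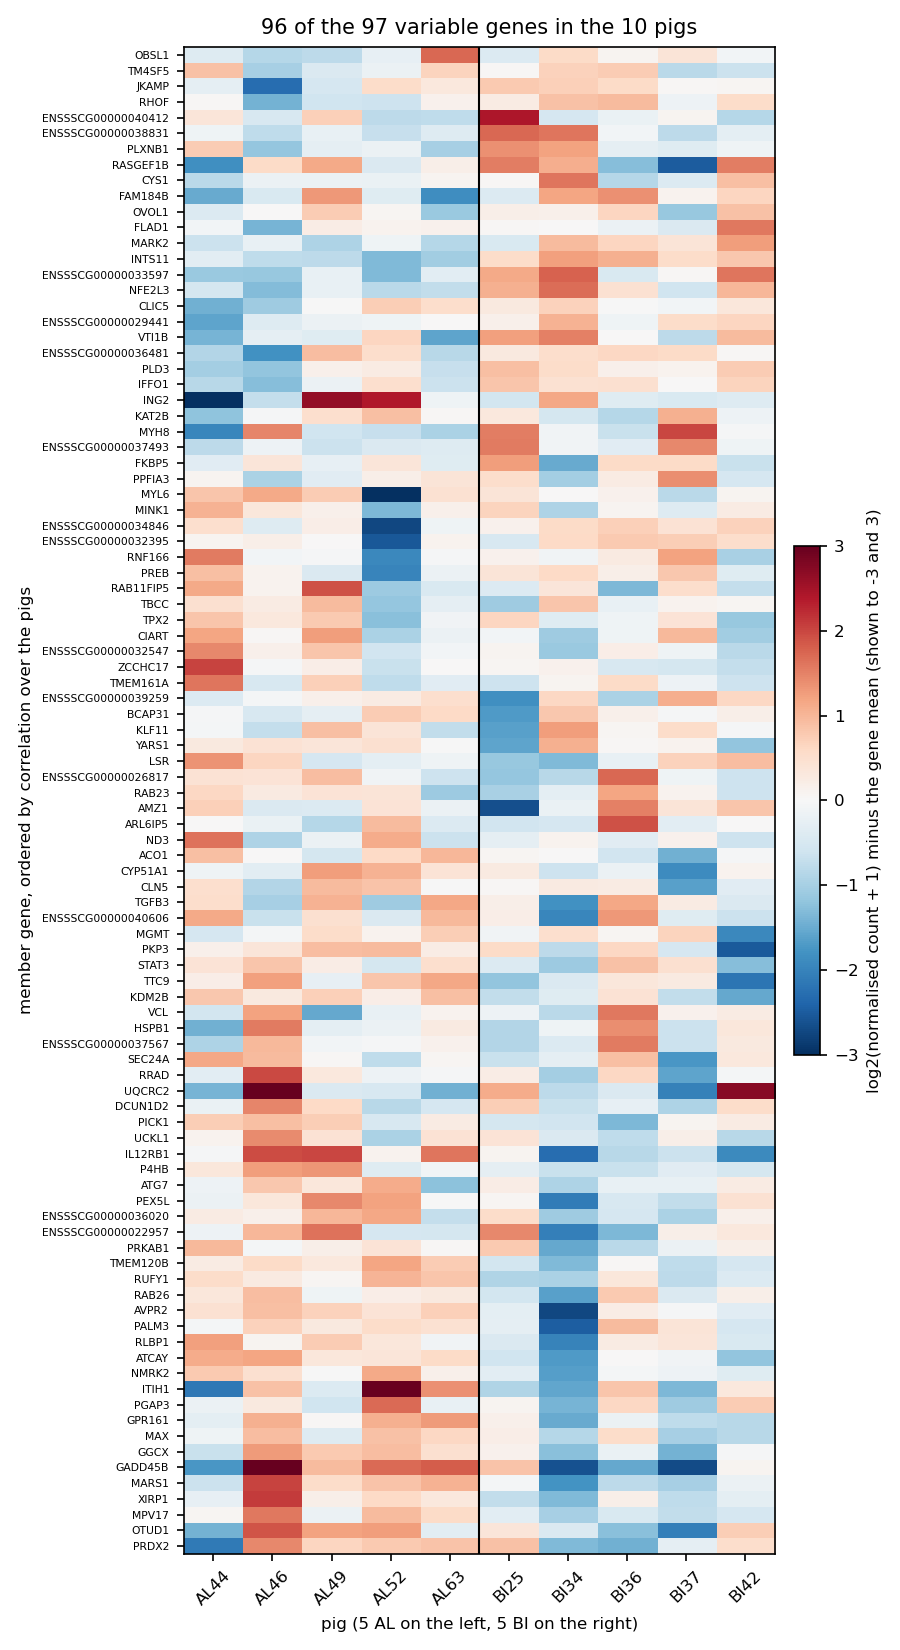
Colour gives log2(normalised count + 1) minus the gene mean for 96 of the 97 genes (rows, ordered by correlation) in each pig (columns, 5 AL then 5 BI), clipped at -3 and 3. Red blocks of AL46 (GADD45B, MARS1, XIRP1 and MPV17) and blue blocks of BI34 (AVPR2, PALM3 and RLBP1) and AL52 (MYL6, ENSSSCG00000034846 and ENSSSCG00000032395) stand out.

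The genes of largest SD had varied functions. In the sentences that follow, AL values are in the order AL44, AL46, AL49, AL52 and AL63, and BI values in the order BI25, BI34, BI36, BI37 and BI42. GADD45B, a stress-inducible gene of growth arrest and DNA damage signalling, had the largest SD (2.03), with normalised counts of 2.83, 114, 23.7, 40.9 and 44.1 in AL and 22.2, 1.1, 3.45, 1 and 12.7 in BI. AL46 was the highest pig, AL44 was the only AL pig at the floor, BI34 and BI37 were near 1, and the breeds overlapped. RRAD, a small GTPase of the RGK family found in muscle and a gene of smaller SD (0.95), had counts of 34.9, 176, 55, 39.1 and 43 in AL and 51.1, 20.9, 68.1, 14 and 42.3 in BI, so that AL46 was again far above the rest. OTUD1, a deubiquitinating enzyme, had counts of 35.9, 366, 227, 236 and 78 in AL and 126, 71.6, 40.5, 23 and 164 in BI. It was highest in AL46 and lowest in BI37.

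ING2, a reader of methylated histone H3 in a histone deacetylase complex, had counts of 0, 6.51, 75.5, 64 and 10.2 in AL and 7.41, 26.4, 8.62, 8.02 and 8.45 in BI. No read fell on it in AL44, whereas AL49 and AL52 stood above all other pigs and the BI pigs other than BI34 lay within a narrow range. ITIH1, a heavy chain of the inter-alpha-trypsin inhibitor that binds hyaluronan, had counts of 1.89, 22.3, 8.63, 98.7 and 31.7 in AL and 5.77, 3.3, 21.6, 4.01 and 14.8 in BI, with AL52 highest. NEK4 overlaps ITIH1 on the opposite strand and was far more abundant (mean 1390 against 21.3), and the r between the genes was 0.04. RASGEF1B, a guanine nucleotide exchange factor, had counts of 3.78, 24.2, 36.7, 11.6 and 18.1 in AL and 48.6, 35.2, 6.03, 2 and 48.6 in BI, high and low pigs being present in both breeds. FAM184B, a gene of little known function, had counts of 7.55, 16.7, 59.3, 17.8 and 5.66 in AL and 17.3, 54, 62.1, 25.1 and 37 in BI. The unnamed ENSSSCG00000022957 had counts of 15.1, 34.4, 53.9, 11.6 and 11.3 in AL and 46.9, 3.3, 6.03, 19 and 21.1 in BI, and neither gene separated the breeds.

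UQCRC2, a core subunit of respiratory complex III, had counts of 25.5, 621, 50.7, 48.9 and 24.9 in AL and 151, 39.7, 50.9, 16 and 459 in BI. AL46, BI42 and BI25 stood above the other 7 pigs, which lay between 16.0 and 50.9. DCUN1D2, a factor of cullin neddylation, was paired with it (r = 0.84 over the 10 pigs) at 17, 56.7, 30.2, 10.7 and 13.6 in AL and 33.8, 12.1, 16.4, 10 and 29.6 in BI. ND3, a complex I subunit encoded in the mitochondrial genome, had counts of 560, 94.8, 160, 389 and 114 in AL and 149, 195, 142, 198 and 116 in BI, with AL44 and AL52 above the other pigs. PRDX2, a thiol peroxidase that removes hydrogen peroxide, was an abundant member at 186, 2204, 1255, 1396 and 1449 in AL and 1495, 324, 295, 674 and 1159 in BI. AL44, BI34 and BI36 were low, and the other 4 AL pigs, BI25 and BI42 were the highest 6.

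MYH8, the perinatal myosin heavy chain of developing and regenerating fibres, had counts of 5.66, 70.6, 16.2, 15.1 and 12.4 in AL and 75, 23.1, 15.5, 104 and 24.3 in BI. AL46, BI25 and BI37 were high and AL44 was lowest, in overlapping breeds. The unnamed ENSSSCG00000037493 followed it (r = 0.84), at 74.6, 115, 82, 95.2 and 98.4 in AL and 380, 119, 102, 351 and 118 in BI, with BI25 and BI37 above all other pigs. MYL6, the essential myosin light chain of smooth muscle and non-muscle cells, had counts of 39.7, 49.3, 37.8, 1.78 and 30.5 in AL and 28.8, 22, 24.1, 12 and 23.2 in BI. AL52 was far below the remaining 9 pigs, which lay between 12 and 49.3. VCL, the actin-linking protein vinculin, had counts of 16, 56.7, 7.55, 20.5 and 26 in AL and 21.4, 13.2, 74.1, 26.1 and 28.5 in BI, with BI36 and AL46 highest and AL49 lowest.

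**Figure D2:**
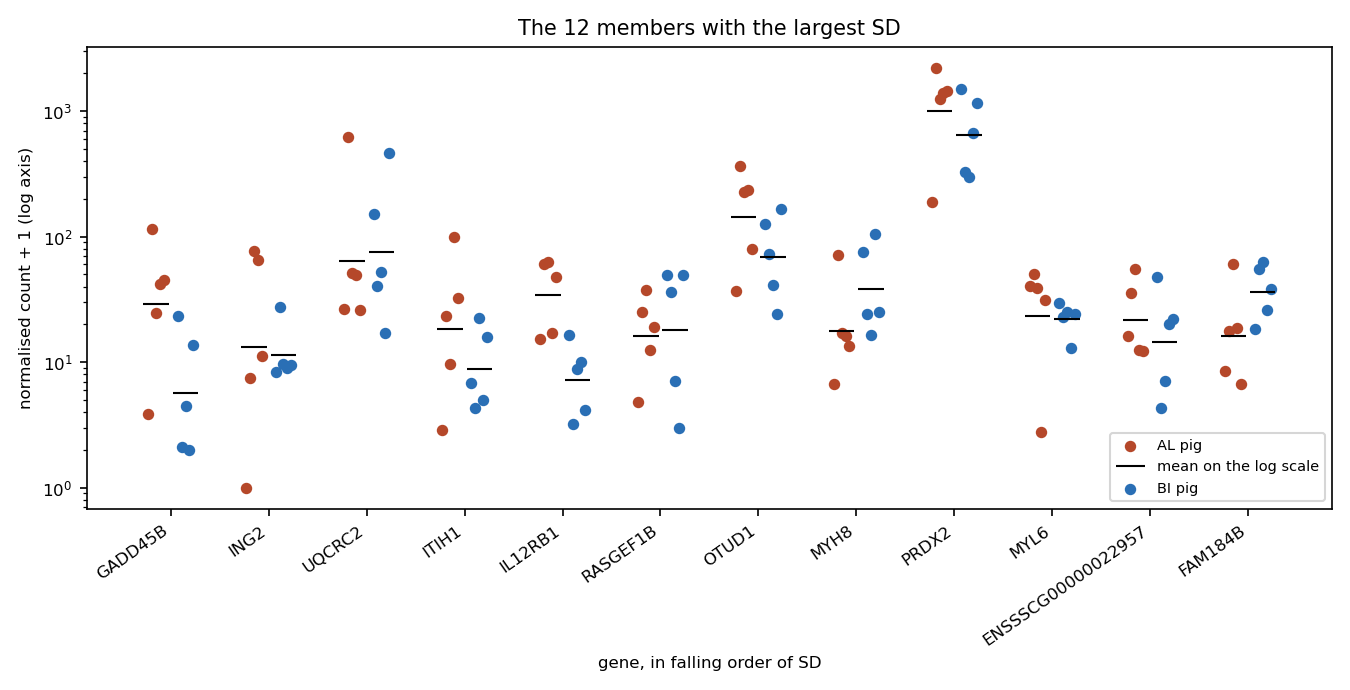
Points are the normalised count + 1 (log axis) of each AL (red) and BI (blue) pig for the 12 genes with the largest SD, and black lines the mean on the log scale. AL44 at no read of ING2, AL52 at 1.78 for MYL6 and AL46 at 621 for UQCRC2 are single pigs far from the rest of their breed.

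Grouping by average linkage at r of at least 0.8 gave 1 group of 5 genes, 4 groups of 3 and 14 pairs, and 52 genes fell in no group. The correlations are descriptions over 10 pigs whose genes share libraries. The group of 5 joined GADD45B, MARS1, XIRP1, GGCX and MPV17, with a lowest r of 0.78 and a median of 0.90. MARS1, the cytosolic methionyl-tRNA synthetase, had counts of 191, 1231, 444, 544 and 622 in AL and 287, 85.9, 173, 149 and 265 in BI. XIRP1, an actin-binding protein that gathers at sites of muscle fibre damage, had counts of 62.3, 320, 83.1, 112 and 91.6 in AL and 43.7, 28.6, 82.8, 43.1 and 60.2 in BI. GGCX, the vitamin K-dependent gamma-glutamyl carboxylase, had counts of 52.9, 208, 146, 163 and 119 in AL and 92.3, 35.2, 73.3, 31.1 and 82.4 in BI. In all 5 genes AL46 was highest, and BI34 or BI37 was lowest.

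MPV17, a protein of the inner mitochondrial membrane, had counts of 83.1, 244, 71.2, 157 and 120 in AL and 64.2, 39.7, 58.6, 48.1 and 56 in BI. It was the only one of the 5 whose breeds did not overlap. The summed levels of the listed immediate early genes (1117) and heat shock genes (2895) were also highest in AL46, against 629 to 962 and 1849 to 2709 in the other pigs. The heat shock sum includes HSPB1, itself among the 97 and at 783 in AL46 and 699 in BI36, so this sum is not independent of the rule. The part of these lists in the group was not tested. None of the listed immediate early genes was among the 97. Of the 6 with a mean of at least 20, only 1 had an absolute r under 0.5 to the first component and could be chosen. The median SD of these 6 was 0.71. The DDIT3 gene overlaps MARS1 on the opposite strand in RefSeq and was not analysed here.

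HSPB1, a small heat shock protein, had counts of 98.2, 783, 217, 236 and 322 in AL and 145, 243, 699, 169 and 339 in BI. AL46 and BI36 were above the other pigs and AL44 was lowest. The unnamed ENSSSCG00000037567, the most abundant of the 97 genes, followed it closely (r = 0.95) at 11456, 42338, 20569, 21133 and 23674 in AL and 11761, 16314, 63193, 13943 and 26470 in BI. Of the 9 listed heat shock genes among the 2504, HSPB1 was the only member of the variable set.

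The groups of 3 were marked by other pigs. AVPR2 (the vasopressin V2 receptor), PALM3 (a paralemmin) and RAB26 (a GTPase of secretory vesicles) had pairwise r of at least 0.85 and were lowest in BI34. AVPR2 had counts of 28.3, 39, 33.4, 27.6 and 33.9 in AL and 16.5, 2.2, 24.1, 20 and 15.8 in BI. ATCAY (caytaxin), RLBP1 (a retinaldehyde-binding protein) and NMRK2 (the muscle nicotinamide riboside kinase that makes NAD+ precursors) were also lowest in BI34. RLBP1 had counts of 596, 271, 429, 321 and 236 in AL and 189, 62.8, 300, 328 and 184 in BI. BI34 was below all 9 others, and AL44 was highest. ATCAY and NMRK2 lie on the minus strand of chromosome 2, 8.73 kb apart, with r = 0.85.

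CIART, a repressor of the circadian clock, was grouped with TPX2, a spindle assembly factor, and ENSSSCG00000032547. CIART had counts of 77.4, 34.4, 80.9, 16.9 and 29.4 in AL and 31.3, 15.4, 30.2, 66.1 and 15.8 in BI, highest in AL49 and AL44. It was the only one of the 6 listed circadian genes among the 2504 that was in the variable set. PLD3, a phospholipase D family exonuclease, IFFO1, an intermediate filament family protein, and ENSSSCG00000036481 formed the remaining group of 3, lowest in AL46. FKBP5, a glucocorticoid-induced co-chaperone, belonged to no group and had counts of 16, 27, 17.3, 26.7 and 15.8 in AL and 50.2, 6.61, 31, 31.1 and 12.7 in BI, with BI25 highest and BI34 lowest.

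AL52 was low in a set of genes of unlike level. ENSSSCG00000034846 had counts of 1930, 1040, 1563, 204 and 1257 in AL and 1497, 2050, 2246, 1854 and 2190 in BI. ENSSSCG00000032395 had counts of 5112, 5474, 4882, 826 and 5182 in AL and 3485, 7307, 8373, 8038 and 6926 in BI. The r between these genes was 0.94, and in both AL52 lay below the 9 other pigs by more than 2 log2 units. PREB, a guanine nucleotide exchange factor of vesicle export, and RNF166, a ubiquitin ligase, formed a pair (r = 0.90) that was also lowest in AL52. PREB had counts of 39.7, 22.3, 15.1, 4.45 and 18.1 in AL and 27.2, 31.9, 23.3, 37.1 and 15.8 in BI.

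Other pairs joined a growth factor or a transcription factor with an unnamed gene. TGFB3, a ligand of the TGF-beta family, had counts of 82.1, 27.9, 119, 26.7 and 129 in AL and 64.2, 15.4, 129, 68.1 and 42.3 in BI. It was paired with ENSSSCG00000040606 (r = 0.91), and BI34 was lowest in both. NFE2L3, a basic leucine zipper transcription factor, was paired with ENSSSCG00000033597 (r = 0.89), and TMEM120B with RUFY1 (r = 0.94).

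Genes outside the groups often owed their place to 1 pig. ZCCHC17, a zinc finger protein of RNA metabolism, had counts of 3825, 920, 1082, 587 and 941 in AL and 975, 1027, 667, 654 and 572 in BI, with AL44 far above the others. OBSL1, a cytoskeletal adaptor related to obscurin, had counts of 16, 11.2, 11.9, 17.8 and 72.4 in AL and 15.6, 31.9, 22.4, 28.1 and 20.1 in BI, with AL63 highest. FLAD1, the enzyme that makes FAD from flavin mononucleotide, had counts of 56.6, 22.3, 70.1, 64.9 and 65.6 in AL and 61.8, 60.6, 53.4, 44.1 and 181 in BI, with BI42 highest. In each of these 3 genes the distant pig was a different one.

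AMZ1, a zinc metallopeptidase, had counts of 34, 14.9, 15.1, 27.6 and 18.1 in AL and 2.47, 17.6, 60.3, 27.1 and 37 in BI, and only 3 reads fell on it in BI25. JKAMP, an endoplasmic reticulum membrane protein that binds the kinase JNK, had counts of 21.7, 4.65, 18.3, 39.1 and 32.8 in AL and 46.1, 44.1, 39.7, 27.1 and 27.5 in BI, with AL46 lowest. MGMT, which repairs alkylated guanine in DNA, had counts of 16, 22.3, 34.5, 24.9 and 39.6 in AL and 21.4, 33, 24.1, 37.1 and 5.28 in BI, with BI42 lowest. These low ends rested on few reads.

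Others were spread over several pigs. VTI1B, a SNARE protein of endosomal fusion, had counts of 52.9, 115, 109, 221 and 46.4 in AL and 331, 399, 142, 81.2 and 273 in BI, with BI34 and BI25 highest. RAB11FIP5, an effector of recycling endosomes, had counts of 303, 147, 511, 64 and 98.4 in AL and 102, 175, 52.6, 196 and 82.4 in BI, with AL49 and AL44 highest and BI36 lowest. STAT3, a transcription factor of cytokine signalling, had counts of 60.4, 80.9, 52.9, 31.1 and 64.5 in AL and 33.8, 20.9, 83.6, 64.1 and 18 in BI. Its highest pigs, BI36 and AL46, belonged to different breeds.

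ATG7, an enzyme that starts autophagosome membrane conjugation, had counts of 138, 267, 193, 330 and 64.5 in AL and 179, 80.4, 131, 130 and 182 in BI, with AL52 highest and AL63 lowest. KLF11, a zinc finger transcription factor, had counts of 31.2, 19.5, 61.5, 42.7 and 19.2 in AL and 9.88, 79.3, 33.6, 48.1 and 31.7 in BI, with BI34 highest and BI25 lowest. In all of these genes the breeds overlapped, and none passed the limma test described below.

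Counted over the 97 genes, AL46 was the highest pig in 20 (20.6%), against 10.8% of the 2504 genes. BI34 was the lowest in 25 (25.8%), against 9.38%. The median deviation of the 97 genes from their gene mean was -0.41 in BI34 and 0.18 in AL46 on the log2 scale, while that of the 2504 genes was 0.04 and -0.05. BI34 had the largest share of reads on its 10 highest genes (60.3%, against 48.5% to 57.7% in the others). With a library size that leaves out the 10 genes of highest mean over all pigs, BI34 was the lowest in 28 of the 97 genes and AL46 the highest in 20. No test was made, since the rule takes genes with distant pigs.

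**Figure D3:**
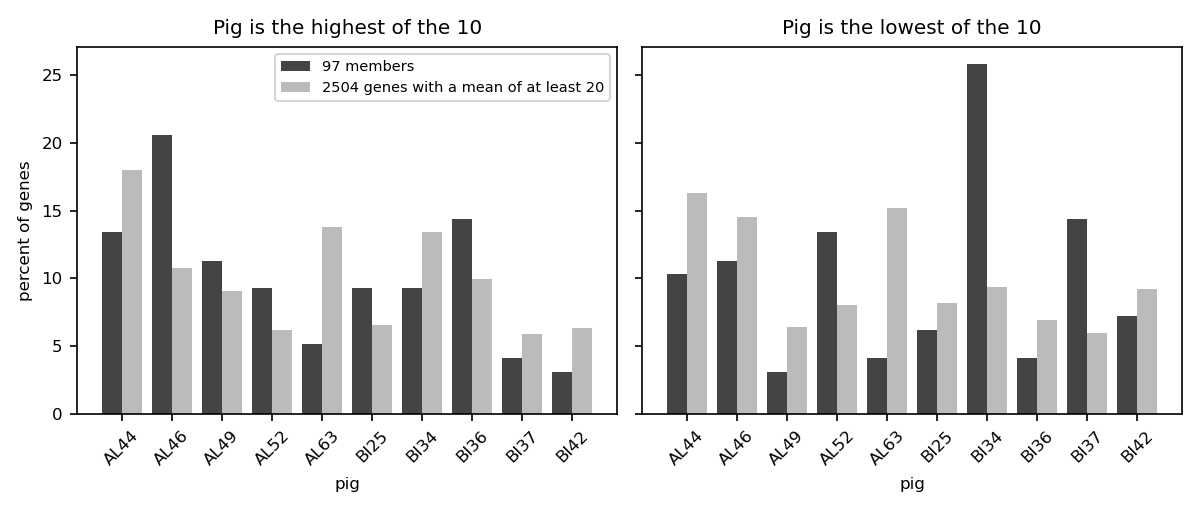
Bars give the percent of the 97 genes (dark) and of the 2504 genes with a mean of at least 20 (light) in which each pig is the highest (left) or the lowest (right) of the 10. AL46 reaches 20.6% on the left and BI34 25.8% on the right.

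The question whether these genes differed between AL and BI was addressed with limma on log2(normalised count + 1) over the 2504 genes, with Benjamini-Hochberg adjustment. A difference between the breeds adds to the SD over the 10 pigs, so shares of called genes are given beside the background and nothing is read from them. INTS11 was the only gene called, both among the 97 and among the 2504 (0.0399%). It was underexpressed in AL. No gene was called higher in AL, while 30 of the 97 had an unadjusted p under 0.05 (background 7.99%), 19 of them with higher values in AL (background 4.23%) and 11 with higher values in BI (background 3.75%). The median log2 FC (AL minus BI) was 0.26 over the 97 genes and -0.03 over the 2504, with 62 and 1119 genes higher in AL, respectively.

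INTS11, the RNA endonuclease of the Integrator complex that cuts nascent small nuclear RNA and promoter-proximal transcripts, had counts of 58.5, 42.8, 42.1, 28.5 and 35.1 in AL and 108, 171, 153, 107 and 128 in BI. Every BI pig was above every AL pig. The log2 FC was -1.68 ± 0.22 (SE), with a limma adjusted p of 0.00749, and the exact permutation p was 0.00794, the smallest that 5 against 5 pigs allow. Adjusted over the 2504 genes the exact permutation value was 0.528. INTS11 lies at chr6:63596809-63607915 on the minus strand, and PUSL1, which overlaps it on the opposite strand by 113 exonic bases, had a mean of 17.9 and an r of 0.40 to it. INTS11 was not tested where both breeds had to reach a mean of 50. Its adjusted p ranged from 5.26e-09 to 0.037 over the 17 alternatives that tested it.

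Breed values did not overlap in 6 of the 97 genes (background 1.36%), with 5 higher in AL (background 0.719%) and INTS11 higher in BI (background 0.639%). TMEM120B, a membrane protein linked to adipocyte differentiation, had counts of 118, 148, 123, 225 and 169 in AL and 66.7, 38.6, 102, 58.1 and 69.7 in BI. Its log2 FC was 1.24 ± 0.25 (SE), with a limma adjusted p of 0.145. ATCAY had counts of 174, 183, 102, 104 and 120 in AL and 52.7, 24.2, 81, 74.2 and 34.9 in BI. Its log2 FC was 1.43 ± 0.32 (SE), with a limma adjusted p of 0.195.

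NMRK2 had counts of 583, 475, 336, 744 and 377 in AL and 271, 107, 323, 304 and 264 in BI, with a log2 FC of 1.02 ± 0.30 (SE) and a limma adjusted p of 0.258. The log2 FC of MPV17 was 1.20 ± 0.30 (SE), with a limma adjusted p of 0.202, and that of AVPR2 was 1.27 ± 0.47 (SE), with a limma adjusted p of 0.441. These 5 genes did not pass the limma test, although each AL pig exceeded each BI pig. With DESeq2 on the recovered reads, 12 of the 97 genes were called (background 1.40%). They were IL12RB1, MARS1, ATCAY, KDM2B, MPV17, TMEM120B, P4HB and RUFY1, higher in AL (background 0.919%), and INTS11, NFE2L3, MARK2 and ENSSSCG00000033597, higher in BI (background 0.479%). The DESeq2 adjusted p was 0.00227 for TMEM120B, 0.00648 for ATCAY and 0.00794 for MPV17. With edgeR the only call was INTS11 (background 0.0399%), and limma over all 14681 genes with a read called 13 of the 97 (background 0.272%), among them NMRK2 (limma adjusted p 0.0334).

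The 12 genes called by DESeq2 were the 12 of the 97 that the study lists as differently expressed. That list was made with DESeq2 on these same pigs, so neither is independent evidence of direction. IL12RB1, the receptor chain shared by interleukin 12 and interleukin 23, had the largest log2 FC of them, 2.24 ± 0.54 (SE), with a limma adjusted p of 0.202. Its counts were 14.2, 59.5, 61.5, 16 and 46.4 in AL and 15.6, 2.2, 7.76, 9.02 and 3.17 in BI. AL44 lay below BI25 and AL52 just above it, and BI34 and BI42 were at or under 3 reads. P4HB, a protein disulphide isomerase that is also a subunit of prolyl 4-hydroxylase, was paired with IL12RB1 (r = 0.82) and had counts of 141, 268, 281, 85.4 and 105 in AL and 92.3, 69.4, 69, 87.2 and 76.1 in BI.

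KDM2B, a histone H3 lysine 36 demethylase, had counts of 788, 550, 739, 516 and 844 in AL and 269, 346, 608, 270 and 154 in BI, with a log2 FC of 1.17 ± 0.29 (SE) and a limma adjusted p of 0.202. KDM2B lies 99.8 kb from TMEM120B on chromosome 14, and r between them was 0.67. RHOF, a small GTPase of actin-rich protrusions, overlaps TMEM120B on the opposite strand and had counts of 226, 81.8, 147, 143 and 242 in AL and 264, 409, 428, 200 and 324 in BI. Its log2 FC was -1.0 ± 0.29 (SE), with a limma adjusted p of 0.258, opposite in sign to that of TMEM120B. RUFY1, an endosomal trafficking protein, had counts of 121, 98.5, 85.2, 166 and 147 in AL and 43.7, 41.9, 104, 47.1 and 61.3 in BI, with a log2 FC of 1.08 ± 0.27 (SE) and a limma adjusted p of 0.202.

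NFE2L3 had counts of 26.4, 14.9, 32.4, 21.3 and 22.6 in AL and 80.7, 124, 52.6, 25.1 and 77.1 in BI, with a log2 FC of -1.44 ± 0.37 (SE) and a limma adjusted p of 0.208. The unnamed ENSSSCG00000033597 had counts of 9.44, 9.3, 18.3, 8.01 and 17 in AL and 48.6, 76, 15.5, 22 and 67.6 in BI, with a log2 FC of -1.64 ± 0.44 (SE) and a limma adjusted p of 0.235. MARK2, a kinase that regulates microtubule-binding proteins, had counts of 17, 23.2, 14, 24.9 and 14.7 in AL and 19.8, 54, 43.1, 36.1 and 66.5 in BI, with a log2 FC of -1.11 ± 0.32 (SE) and a limma adjusted p of 0.258. In these 3 genes AL values stayed in a narrower range than BI values, and the breeds overlapped.

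**Figure D4:**
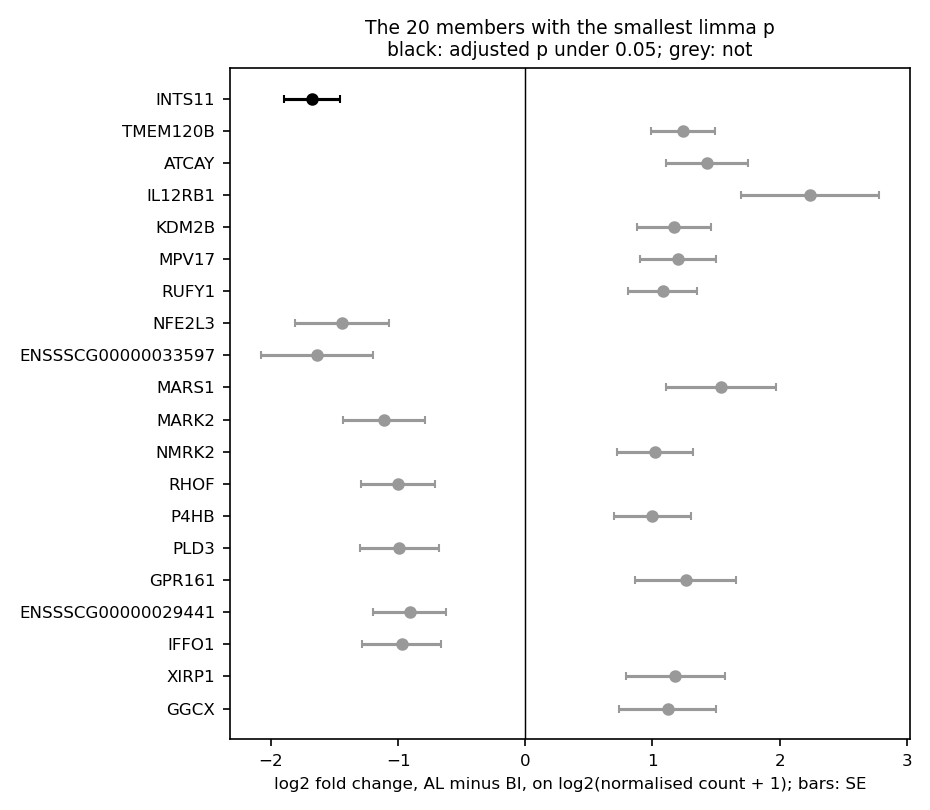
Points are the log2 fold change (AL minus BI, on log2(normalised count + 1)) of the 20 genes of the set with the smallest limma p, with bars for the SE. INTS11 (black, -1.68) is the only one with an adjusted p under 0.05, and the grey genes include IL12RB1 at 2.24.

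Of 18 gene lists of muscle and of other cell types, 4 shared genes with the variable set. These were the satellite cell and regeneration list (MYH8 and XIRP1), the circadian list (CIART), the atrophy and FoxO list (FKBP5) and the heat shock list (HSPB1). The adipocyte, erythroid, lymphoid, MHC, endothelial, fibroblast, slow fibre and fast fibre lists held none. Only genes with a mean of at least 20 and an absolute r under 0.5 to the first component could be chosen. The adipocyte, fibroblast and T and NK cell lists had 0 such genes. The erythroid, B and plasma cell and endothelial lists had 1 each, the MHC and fast fibre lists 3 each and the slow fibre list 6. Where 0 or 1 gene could be chosen, nothing is read from the absence. No listed gene was called between the breeds by limma among 91 list entries tested, 18 of them (19.8%, background 7.99%) with an unadjusted p under 0.05. DESeq2 called 3 of these entries (3.30%, background 1.40%) and edgeR 0. The largest shifts were in lists with no gene in the variable set, namely the slow fibre genes (median log2 FC 0.68, 5 of 7 with an unadjusted p under 0.05) and the immediate early genes (0.58, 1 of 6). These are the tested genes of 12 and 32 listed, and MYH7 of the slow fibre list was not tested. The listed satellite cell and regeneration genes had a median log2 FC of -0.52 over 4 tested genes, the circadian genes 0.50 over 6, the atrophy and FoxO genes 0.25 over 9 and the heat shock genes -0.03 over 9, against -0.03 over the 2504.

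The libraries were stranded, but the strand setting of the counting is not given in the sources used here, so genes on the opposite strand were examined. If reads were counted on the wrong strand, a count could belong to a neighbour and not to the named gene. The paper reports far more sequenced reads per sample, nearly all aligned, than were counted on genes here. It names RABEP2, SEPTIN1 and CTSF among the genes most expressed in this muscle. Whether reads were counted on the wrong strand was not tested, and the functions given above are those of the names. Such a gene lay within 5 kb of 75.6% of the 78 nuclear members with a position, and overlapped 38.5% of them. For the 2504 genes these shares were 83.5% and 48.9%, over 1959 with a position. Correlation over the 10 pigs was computed for the 33 distinct opposite-strand pairs in which the neighbour had a mean of at least 5. It was tested with 100000 permutations and Benjamini-Hochberg adjustment over the 33.

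PRDX2 and JUNB, an AP-1 transcription factor gene that lies 2612 bases away on chromosome 2, varied together, with r = 0.89 (permutation p = 0.0006, q = 0.0099) and rho = 0.93 (permutation p = 0.00034, q = 0.0112). Without AL44 and BI36, the most distant pigs for PRDX2, r was 0.72. JUNB was far less abundant (mean 11.9 against 1040) and had 0.944 normalised counts, below the floor, in AL44. PKP3, a desmosomal plakophilin, and SIGIRR, an inhibitory receptor of the interleukin 1 receptor family 929 bases away, had r = 0.86 (permutation p = 0.00016, q = 0.00528) and rho = 0.90 (permutation p = 0.00096, q = 0.0158). Without BI42 and BI34, r was 0.94. PKP3 had counts of 32.1, 37.2, 56.1, 56.9 and 33.9 in AL and 43.7, 16.5, 44.8, 20 and 4.23 in BI. In SIGIRR, BI34, BI37 and BI42 were at or near 3 reads. No other pair passed the adjustment. The next was MARK2 and RCOR2, with r = 0.73 (permutation p = 0.0146, q = 0.161). A high r was not particular to opposite-strand pairs. Same-strand neighbours were not tested, and their r ran from -0.63 (INTS11 and ACAP3) to 0.88 (P4HB and ARHGDIA). TMEM120B and RUFY1, on different chromosomes, had r = 0.94.

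**Figure D5:**
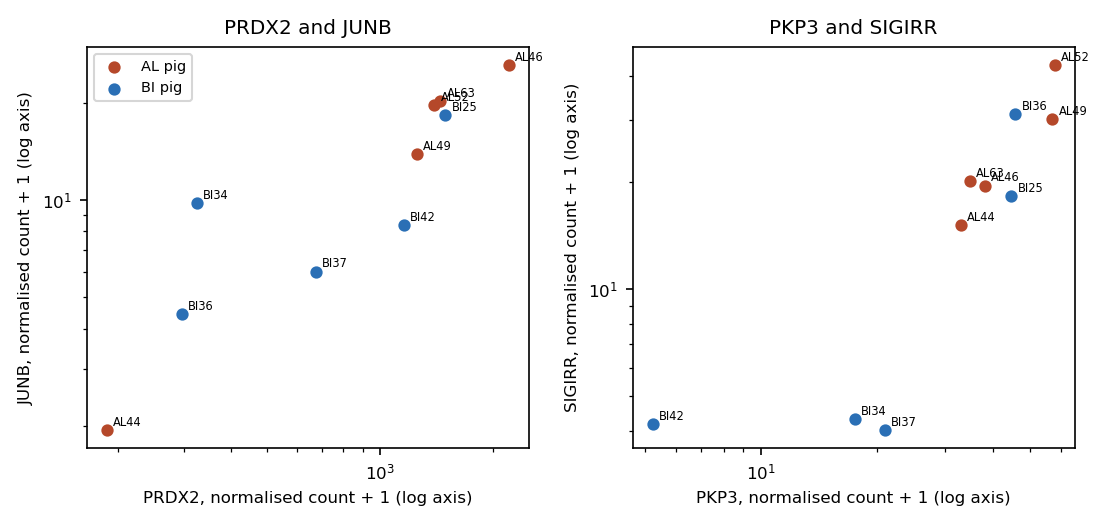
Normalised count + 1 of PRDX2 against JUNB (left) and of PKP3 against SIGIRR (right), log axes, 1 point per pig, AL in red and BI in blue. AL44 is lowest and AL46 highest in both PRDX2 and JUNB (r = 0.89), and BI34, BI37 and BI42 are low in both PKP3 and SIGIRR (r = 0.86).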

How the data were processed

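RNA of longissimus lumborum from 10 pigs was sequenced as stranded, paired-end mRNA libraries. Per the labels and the methods, trimming was done with Trim Galore 0.5.0, alignment with HISAT2 2.1.0 against the Sscrofa11.1 build of Ensembl release 94, and counting with HTSeq 0.11.1. The deposited signal values are gene counts divided by DESeq2 size factors. The table also holds the authors' mean over the pigs and, for their own DESeq2 comparison, the log2 fold change, its standard error, the Wald statistic and raw and adjusted p-values, none of which was used. Division by the smallest value above 0 of each pig gave whole reads for 100% of values (tolerance 0.05), between 2298045 and 3343194 per pig. Depth limits genes of a few reads, and the floor of 3 reads covers counting error only.

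Pigs were grouped by the breed label. The members and gene lists were chosen with earlier results of these data known. Breeds were compared with limma 3.58.1 (intensity trend, no covariate, pseudocount 1) in R 4.3.3, on genes with a mean of at least 20, with an adjusted p threshold of 0.05. The log2(value + 1) scale understates changes of low genes. Exact two-sided permutation tests used all 252 splits of the pigs. Alternatives were pseudocounts of 0.1 and 10, other filters, another library size, DESeq2 1.42.0 and edgeR 4.0.16 on recovered reads, robust limma, and each pig left out. The tests were tested on simulated data. The values of 1 member are not reported here. Nothing states that pigs were littermates or otherwise related.

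Named genes were the 12 largest SD, genes of the lists or of the study's list, those without breed overlap, the 5 smallest p in each direction, genes beside the SD limit, those of the largest correlated group and opposite-strand neighbours. Others (RRAD, VCL, ND3, TGFB3, PREB, RLBP1, the ungrouped genes described before the pig counts, and partners in pairs or groups) were chosen after their values were seen. Positions were looked up by unique symbol in RefSeq release 106 for Sscrofa11.1, whereas counting used Ensembl models. Sequences were read with pysam 0.24.0, and figures drawn with matplotlib 3.10.9.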

Additional observations from a re-analysis of the deposited data

Results flagged for a closer look

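Within each breed, a pig was singled out where its gap to the nearest other pig, on log2(normalised count + 1), exceeded 0.71 of the range of the 5 pigs (Dixon's ratio). This was met 6 times in 68 groups of 5 for the 34 named members, and chance gives about 1 in 20 for genes not chosen by spread. The members were chosen for a large SD, to which a distant pig adds, so nothing is read from the count. BI34 was the highest BI pig for ING2, with a ratio of 0.887 and a normalised count of 26.4 against 8.62 in the next pig. AL46 was the highest AL pig for UQCRC2, with a ratio of 0.782 (621 against 50.7). AL44 was the lowest AL pig for PRDX2, with a ratio of 0.772 (186 against 1255). AL52 was the lowest AL pig for MYL6, with a ratio of 0.839 (1.78 against 30.5). BI34 was the lowest BI pig for AVPR2, with a ratio of 0.806 (2.20 against 15.8), and for NMRK2, with a ratio of 0.817 (107 against 264).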

How the results depend on the processing

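INTS11 was called in all 17 alternatives that tested it. The direction of the log2 FC of 15 named genes did not change in 264 alternative values, of which 29 passed the threshold where the main test did not. These 15 were the genes of the study's list, those without breed overlap and those of smallest p. They were thus chosen by their breed difference in these pigs, and a stable direction follows in part from that choice. The count of called genes of the set, 1 in the main test, was 13 without a filter on low values and 12 with DESeq2. The cause of these 2 counts was not tested. The count was 0 where both breeds had to reach a mean of 50, a setting in which 39 of the genes, and not INTS11, were tested. With limma in that setting, 16 of the 39 had an unadjusted p under 0.05. With each pig left out the count of called genes ranged from 1 to 4. It was 4 without AL44 (INTS11, TMEM120B, IL12RB1 and MARS1), 4 without BI36 (INTS11, TMEM120B, RUFY1 and KDM2B) and 2 without BI37 (INTS11 and NFE2L3). The shares over all genes tested are not given for the mean of 50 or for the pigs left out, so nothing is read from these counts. Of the 97 genes, 45 were again chosen with a mean of at least 50 over the pigs, 37 with a mean of at least 10, 55 with an absolute r under 0.3 and 34 with no limit on r. Between 70 (without AL46) and 89 (without AL49) were chosen with a pig left out, and 13 in every case. The other settings kept 79 to 95. AL46 was the highest pig in 20 to 24 genes and BI34 the lowest in 25 to 30 with another pig left out, counts chosen after seeing the data. Depth limits the 12 genes with a pig at or under 3 reads. No paired analysis was possible because the replicate numbers are accession-order names.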
